A study of Mus musculus with 23 samples.

Results

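The MHC class I and immunoproteasome genes described here are 10 genes fixed as a list, H2-K1, H2-D1, B2m, Tap1, Tap2, Tapbp, Psmb8, Psmb9, Psmb10 and Nlrc5. They were matched by symbol to the Ensembl identifiers of a table of raw counts with 55573 gene identifiers, and all 10 were found and passed the filter on low counts that 13049 genes passed. Quadriceps muscle of 23 mice was sequenced as bulk RNA, in 4 groups that share the C57Bl6 strain and an age of 8 to 10 weeks. Male_CORT (6 mice) and Female_CORT (5 mice) carried for 14 days a pellet under the skin with 50 mg corticosterone, the main glucocorticoid of mice, and 50 mg cholesterol. Male_VEH (6 mice) and Female_VEH (6 mice) carried a pellet of 100 mg cholesterol, and all mice were fasted for 5 hours before tissue was taken. No group carried an altered gene. Mice are named by sex and number, so that F2, F4, F6, F8 and F10 are the 5 Female_CORT mice.

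MHC class I molecules show peptides from inside the cell at its surface, where cytotoxic T cells read them. A heavy chain (H2-K1 or H2-D1 in this strain) pairs with the light chain β2-microglobulin (B2m). The peptides are cut by the proteasome, in which interferon can replace the constitutive catalytic subunits Psmb6, Psmb7 and Psmb5 by the inducible Psmb9, Psmb10 and Psmb8, and are pumped into the endoplasmic reticulum by the transporter of Tap1 and Tap2, to which tapasin (Tapbp) tethers the empty class I molecule. Nlrc5 is the transactivator of class I genes and acts at their promoters with RFX, CREB/ATF and NF-Y factors, whereas IRF1 and NF-κB carry cytokine signals to the same genes. Resting muscle fibers are known for little class I at their surface, and glucocorticoids are known to damp interferon and NF-κB signalling.

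On GRCm38, 7 of the 10 genes lie on chromosome 17 within the mouse MHC. These are Tapbp (chr17:33915899-33929292, + strand), H2-K1 (chr17:33996017-34000347, − strand), Psmb9 (chr17:34181987-34187764, − strand), Tap1 (chr17:34187553-34197225, + strand), Psmb8 (chr17:34197721-34201454, + strand), Tap2 (chr17:34203527-34216321, + strand) and H2-D1 (chr17:35262730-35267499, + strand). B2m lies at chr2:122147686-122153083 (+ strand), Nlrc5 at chr8:94434356-94527272 (+ strand) and Psmb10 at chr8:105935735-105938444 (− strand). Tap1 and Psmb9 overlap on opposite strands, and their RefSeq start sites lie 226 bases apart. Counting used the strand, so their reads were kept apart. Tapbp overlaps Zbtb22 and Nlrc5 overlaps Mir7072 on the same strand, and H2-K1 and H2-D1 are paralogs of similar sequence. Read pairs that matched several places or genes were not counted, so the levels of these genes are uncertain to that extent.

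The promoters of the chains are shown because Nlrc5 works through them. RefSeq promoter windows (GRCm38.p6) were matched for 8 of the 10 genes, all but Tap2 and Nlrc5, and the 250 bases before each start were searched on both strands. In H2-K1, H2-D1 and B2m the X2 core TGACG (bound by CREB/ATF) stood before the Y box ATTGG (bound by NF-Y) on the strand of the gene, each time with 20 bases between them. The 3 stretches are given below from X2 core to Y box, both in capitals.
H2-K1: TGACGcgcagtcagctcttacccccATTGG
H2-D1: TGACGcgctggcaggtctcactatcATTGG
B2m: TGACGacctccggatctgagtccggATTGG

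They lie at chr17:34000359-34000388 (− strand), chr17:35262993-35263022 (+ strand) and chr2:122147609-122147638 (+ strand). The H2-D1 stretch falls in the first exon of 1 GENCODE transcript that starts further upstream. With 18 to 24 bases allowed between them, this pair of motifs was found in 0.283% of all 32851 windows and in 56 (0.565%) of the 9905 genes that were tested and had a window. The 5 other members with a window, Tap1, Tapbp, Psmb8, Psmb9 and Psmb10, did not have these letters in this arrangement.

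Longer stretches of H2-K1 (chr17:34000354-34000478, − strand) and B2m (chr2:122147519-122147643, + strand) show what stands upstream of the pair. Capitals mark, on either strand, an NF-κB motif by its consensus, an interferon response core AANNGAAA (the site of IRF factors), the X2 core and the Y box.
H2-K1: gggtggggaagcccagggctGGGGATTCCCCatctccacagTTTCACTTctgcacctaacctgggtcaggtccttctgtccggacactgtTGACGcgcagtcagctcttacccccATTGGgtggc
B2m: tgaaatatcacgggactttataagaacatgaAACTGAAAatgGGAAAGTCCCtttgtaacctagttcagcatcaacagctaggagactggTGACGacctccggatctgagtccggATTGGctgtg

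Over these 125 bases H2-D1 had the same base as H2-K1 at 114 (91.2%). The interferon response core was found in H2-K1, H2-D1 and B2m. It was in 21.3% of all windows and in 19.3% of the tested genes with a window. The NF-κB motif was found in the same 3 members, in 7.25% of all windows and in 10.6% of tested genes. The Y box was present in 6 members (33.9% of all windows, 40.2% of tested genes). The X2 core was present in 5 members (17.8% of all windows, 30.2% of tested genes). Each was counted also where it lies inside the pair. The glucocorticoid receptor half-site AGAACA was present in B2m alone among the members with a window (16.1% of all windows), and the palindrome of AGAACA, 3 bases and TGTTCT in none of them (0.00913% of all windows).

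The libraries held 20904150 to 21984477 read pairs counted in genes. In males, 5 of 5 glucocorticoid receptor target genes on a fixed list rose with corticosterone and in females 1 of 5 (Fkbp5, a co-chaperone of the receptor), where 13.2% of all tested genes rose in males and 7.4% in females. Fkbp5 was 292.5 CPM or higher in the 6 Male_CORT mice and 148.8 to 278.1 CPM in the 5 Female_CORT mice, against at most 58.8 CPM in any vehicle mouse, so all mice labelled as treated stood above all others. CPM is the count scaled to the TMM-normalized library size. The other 4 targets rose in males, Sgk1 by 1.55, Per1 by 1.40, Tsc22d3 by 0.9995 and Zbtb16 by 0.96 on the log2 scale, and in females their log2 fold changes were 0.86, 0.29, 0.57 and 0.76. Female_CORT mice differed widely from one another, and F2, F6 and F10 stood apart from F4 and F8 in adipocyte markers, as given below. M8, F10, M12, M9 and F6 held over 800 CPM of the liver gene Alb. Whether the sexes were processed together is not given in the sources used here, so any such step and sex cannot be told apart.

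In vehicle-treated males the light chain was the most abundant member and the transactivator the least. Per kilobase of exon, mean levels were 138.9 CPM for B2m, 51.2 for H2-D1, 33.7 for H2-K1, 8.78 for Tapbp, 7.38 for Psmb10, 3.51 for Tap2, 2.21 for Psmb8, 1.47 for Tap1, 1.29 for Psmb9 and 0.41 for Nlrc5. Neighbours in this order overlapped over the 6 mice, except for B2m, H2-D1, H2-K1 and Tapbp, which were apart from one another, and Psmb10, which was apart from Tap2. Vehicle-treated females gave the same order but for Psmb9 (1.38) and Tap1 (1.17). Between vehicle-treated males and females, log2 differences of the 10 members ran from −0.25 to 0.41 (male minus female) and none passed the threshold used throughout, an adjusted p of 0.01 in edgeR's quasi-likelihood test over all 13049 genes. At an unadjusted p of 0.05, 1 member passed (Psmb10). With edgeR, 0.958% of all genes were called. DESeq2 also called 0 members, and 284 of the 13049 genes.

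**Figure D1:**
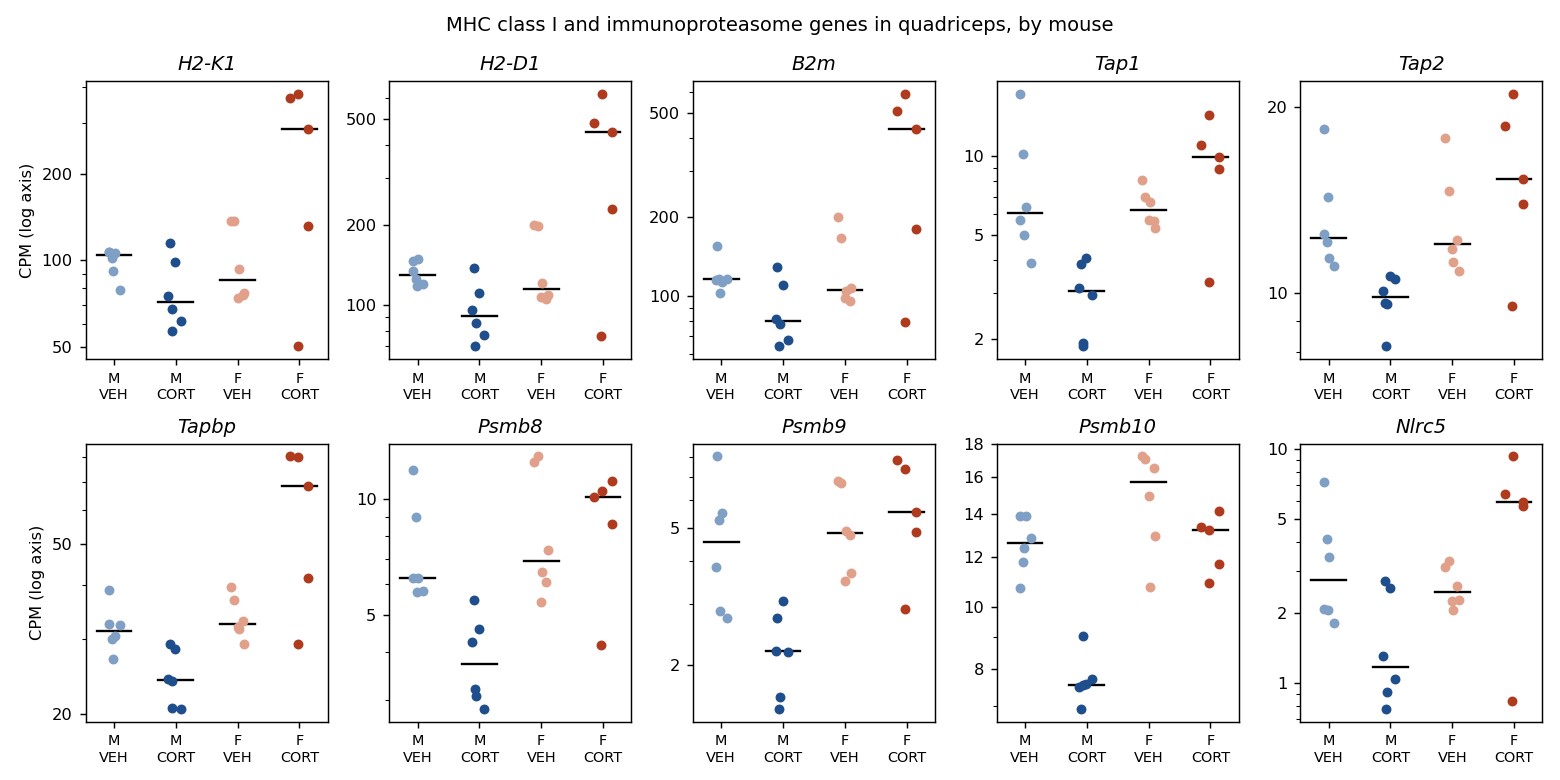
Level of each of the 10 genes in every mouse (points, CPM on a log axis that differs between panels) by sex (M, F) and treatment, with the group median as a line. Male_CORT mice lie low for Tap1, Tap2, Psmb8, Psmb9 and Psmb10, while 1 Female_CORT mouse, F8, is the lowest of its group for all 10 genes.

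In males, corticosterone lowered 4 of the 10 members, the 3 inducible proteasome subunits and the peptide transporter subunit Tap1, where 13.1% of all tested genes fell. All 10 log2 fold changes were below 0, with a median of −0.58 against −0.02 over all genes. In females, 4 of 10 rose, both heavy chains, the light chain and tapasin, where 7.4% of all tested genes rose. The median over the 10 members in females was 0.70 against 0.04 over all genes, with 9 of 10 above 0. No member was called in both sexes. In bulk tissue, fewer cells of a type and less RNA per cell cannot be told apart.

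**Figure D2:**
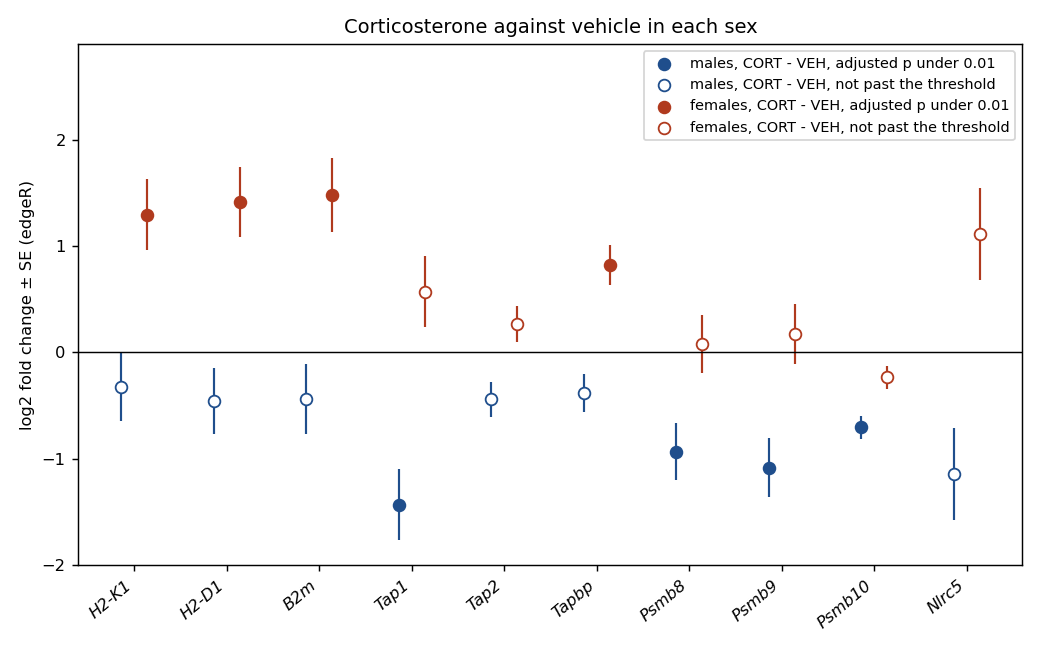
Log2 fold change of corticosterone against vehicle (points, edgeR) with its standard error (bars) for the 10 genes in males and in females; filled points have an adjusted p under 0.01. The called genes are Tap1, Psmb8, Psmb9 and Psmb10 below 0 in males and H2-K1, H2-D1, B2m and Tapbp above 0 in females.

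H2-K1, a classical heavy chain, was at 79.2, 104.4 and 107.4 CPM (lowest, median and highest) in Male_VEH and at 56.9, 71.5 and 115.3 CPM in Male_CORT. The male groups overlapped, and the highest male of all was the treated M8. Its log2 fold change in males was −0.32 ± 0.32 (SE; adjusted p = 0.447). In females H2-K1 ranged from 74.3 to 136.8 CPM with a median of 85.3 in Female_VEH, and, from the lowest to the highest treated mouse, was 50.2 CPM in F8, 132.1 in F4, 286.3 in F2, 367.8 in F10 and 380.4 in F6. Thus 3 treated females were above every vehicle female, 1 was within their range and 1 was below them all. H2-K1 rose 2.46-fold in females (log2 fold change 1.297 ± 0.34, adjusted p = 0.00753).

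H2-D1, the other classical heavy chain, followed the same mice. It was at 118.2, 129.7 and 148.7 CPM in Male_VEH and 69.9, 90.6 and 137.9 CPM in Male_CORT, with 5 of 6 treated males below all vehicle males. Its log2 fold change in males was −0.46 ± 0.31 (adjusted p = 0.258). Female_VEH mice held 105.6 to 198.9 CPM with a median of 114.8, whereas F8 held 76.7, F4 229.5, F2 446.3, F10 484.6 and F6 622.1 CPM. All treated females but F8 were above every vehicle female, and H2-D1 rose 2.66-fold (log2 fold change 1.41 ± 0.33, adjusted p = 0.00364).

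B2m, the light chain shared by all class I molecules, was the member with the largest rise in females. In males it was at 102.2, 115.5 and 154.5 CPM with vehicle and 64.1, 79.8 and 128.8 CPM with corticosterone, and its log2 fold change was −0.43 ± 0.33 (adjusted p = 0.306). In females the vehicle mice ran from 95.5 to 200.9 CPM with a median of 105.6. The treated mice were at 79.1 (F8), 180.2 (F4), 433.6 (F2), 508.2 (F10) and 592.8 CPM (F6), so that F4 lay inside the vehicle range and F8 below it. The rise was 2.79-fold (log2 fold change 1.48 ± 0.35, adjusted p = 0.00357).

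Of the loading genes, Tap1 changed in males and Tapbp in females. Tap1 was at 3.91, 6.05 and 17.3 CPM in Male_VEH and at 1.88, 3.05 and 4.07 CPM in Male_CORT. The groups overlapped by 1 treated mouse, M12, against the lowest vehicle mouse, M3. Tap1 fell by 1.43 on the log2 scale in males (SE 0.34, adjusted p = 0.00185), the largest fall among the members. In females it was at 5.30 to 8.06 CPM with vehicle (median 6.20). With corticosterone it was at 3.30 (F8), 8.91 (F2), 9.92 (F4), 11.05 (F10) and 14.3 CPM (F6). Here 4 treated mice were above and 1 was below all vehicle mice, and the log2 fold change of 0.57 ± 0.34 did not pass (adjusted p = 0.219).

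Tap2, the partner of Tap1 in the transporter, was at 11.03, 12.3 and 18.4 CPM in Male_VEH and 8.18, 9.84 and 10.7 CPM in Male_CORT. The male groups did not overlap, yet the log2 fold change of −0.44 ± 0.16 missed the threshold (adjusted p = 0.0365). In females the log2 fold change was 0.26 ± 0.17 (adjusted p = 0.266), with 10.8 to 17.8 CPM in vehicle mice and 9.497 (F8) to 21.0 CPM (F6) in treated mice. Tapbp, the tapasin gene, was at 26.9, 31.3 and 39.1 CPM in Male_VEH and 20.5, 24.04 and 29.2 CPM in Male_CORT (log2 fold change −0.38 ± 0.18, adjusted p = 0.0997). In females it ran from 29.2 to 39.7 CPM with vehicle, with a median of 32.6, and was 29.1 (F8), 41.5 (F4), 68.2 (F2), 79.9 (F6) and 80.2 CPM (F10) with corticosterone. Tapbp rose 1.77-fold in females (log2 fold change 0.82 ± 0.19, adjusted p = 0.00301), with 4 of 5 treated mice above all vehicle mice.

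The 3 inducible proteasome subunits fell in males. Psmb8 (also called LMP7) was at 5.73, 6.24 and 11.9 CPM in Male_VEH and at 2.85, 3.73 and 5.47 CPM in Male_CORT, without overlap, and fell by 0.93 on the log2 scale (SE 0.27, adjusted p = 0.00831). Psmb9 (LMP2) was at 2.73, 4.56 and 8.03 CPM in Male_VEH and 1.49, 2.19 and 3.06 CPM in Male_CORT, and fell by 1.08 on the log2 scale (SE 0.28, adjusted p = 0.00398). For Psmb9, 4 of 6 treated males were below all vehicle males. Psmb10 (MECL-1) had the tightest groups, with 10.7, 12.6 and 13.9 CPM in Male_VEH and 6.93, 7.57 and 9.01 CPM in Male_CORT, and fell by 0.71 on the log2 scale (SE 0.11, adjusted p = 3.2e-05). Non-overlap of the male groups, with treated mice below, was found for 3 of the 10 members (Tap2, Psmb8 and Psmb10) and for 11.1% of all tested genes.

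In females none of the 3 subunits passed the threshold. Psmb8 ran from 5.42 to 12.9 CPM with vehicle and was 4.18 (F8), 8.59 (F2), 10.1 (F10), 10.5 (F6) and 11.1 CPM (F4) with corticosterone, so that apart from F8 the groups lay on top of each other (log2 fold change 0.08 ± 0.27, adjusted p = 0.867). Psmb9 ran from 3.51 to 6.82 CPM and was 2.903 (F8), 4.87 (F2), 5.54 (F4), 7.39 (F6) and 7.83 CPM (F10) (log2 fold change 0.17 ± 0.28, adjusted p = 0.694). Psmb10 ran from 10.7 to 17.2 CPM and was 10.9 (F8), 11.7 (F2), 13.2 (F6), 13.4 (F10) and 14.2 CPM (F4). Its log2 fold change of −0.24 ± 0.11 (adjusted p = 0.124) was the only one of the 10 below 0 in females. The 95% interval of this value, −0.45 to −0.02, lies below that of B2m in the same mice, 0.80 to 2.16. These are the lowest and the highest of the 10 values in females. The intervals are not adjusted for that choice or for the number of genes, so their separation is no test. DESeq2 also called none of the 3 subunits in females, and the smallest unadjusted p among them was 0.0470 (Psmb10).

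Nlrc5 was the least abundant member. It was at 1.81, 2.76 and 7.23 CPM in Male_VEH and 0.77, 1.17 and 2.74 CPM in Male_CORT, with 4 of 6 treated males below all vehicle males. Its log2 fold change of −1.14 ± 0.43 in males had an adjusted p of 0.0397. In females it ran from 2.05 to 3.32 CPM with vehicle and was 0.84 (F8), 5.68 (F4), 5.96 (F2), 6.44 (F10) and 9.29 CPM (F6) with corticosterone, an 11.1-fold span within 1 group. Again 4 treated females were above and 1 was below all vehicle females, and the log2 fold change of 1.11 ± 0.43 did not pass (adjusted p = 0.0606).

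The ratio of an inducible to its constitutive subunit was computed in each mouse from the counts, since both stand at the same place in the complex. The constitutive subunits themselves did not pass the threshold in either sex: the log2 fold changes in males were −0.16 for Psmb5, −0.11 for Psmb6 and −0.16 for Psmb7 (adjusted p = 0.0990, 0.229 and 0.162), and in females −0.29, −0.27 and −0.31 (adjusted p = 0.0129, 0.0116 and 0.0165). Psmb10 over Psmb7 ran from 0.0357 to 0.0497 in Male_VEH and from 0.0249 to 0.0316 in Male_CORT, without overlap, a log2 difference of −0.55. In a two-sided exact permutation test this gave p = 0.00216, the smallest that 6 against 6 mice can give, and an adjusted p of 0.0130 over the 6 ratios tested. Psmb8 over Psmb5 had medians of 0.117 and 0.0730 in males (log2 difference −0.76, exact permutation p = 0.0108, adjusted p = 0.0325). Psmb9 over Psmb6 had medians of 0.0313 and 0.0164 (log2 difference −0.92, exact permutation p = 0.0173, adjusted p = 0.0346). For these last 2 ratios the adjusted p was 0.0606 to 0.0693 when M1, M2, M4, M6, M7, M9, M10 or M11 was left out. The ratio of counts is not corrected for gene length and is read between mice only.

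In females the same ratios did not differ beyond the spread between mice. The log2 differences were 0.38 for Psmb8 over Psmb5, 0.42 for Psmb9 over Psmb6 and 0.10 for Psmb10 over Psmb7 (exact permutation p = 0.359, 0.299 and 0.675; adjusted p = 0.431, 0.431 and 0.675). Psmb8 over Psmb5 was 0.0710 in F8, 0.161 in F2, 0.239 in F4, 0.250 in F6 and 0.252 in F10, against 0.0957 to 0.240 in vehicle females. F8 was the lowest of all 11 females for this ratio, and F6 and F10 were the highest.

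**Figure D3:**
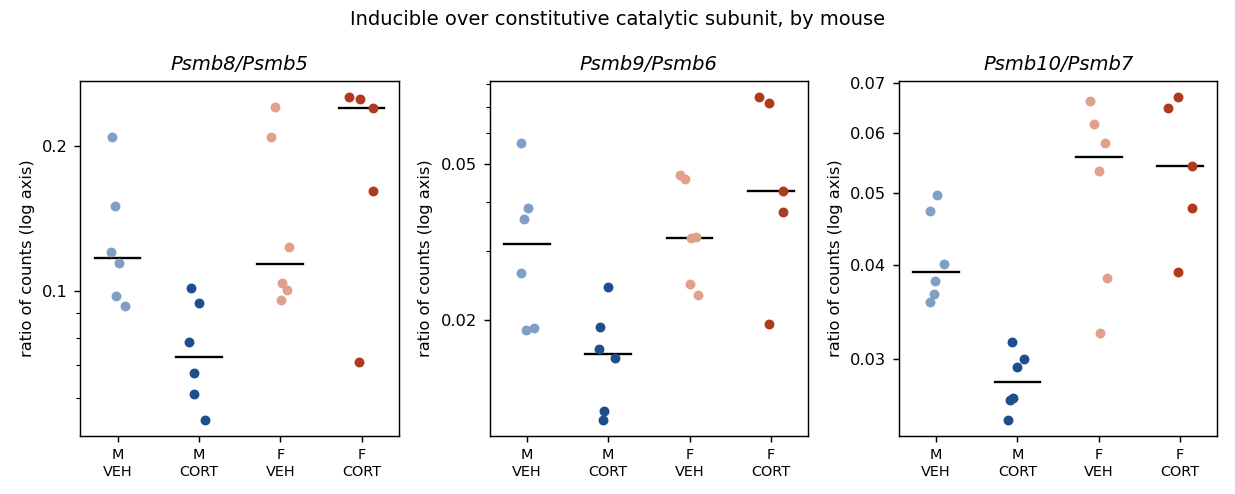
Ratio of the counts of each inducible catalytic subunit to those of its constitutive counterpart in every mouse (points, log axes), by sex and treatment, with group medians as lines. Male_CORT mice are below Male_VEH mice without overlap for Psmb10/Psmb7 (at most 0.0316 against at least 0.0357), and overlap with them for the other 2 ratios.

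Between the treated groups, all 10 members were lower in males than in females, where 14% of all tested genes were. This comparison shares the Female_CORT and Male_CORT mice with the comparisons above. The log2 differences (male minus female) ran from −0.68 ± 0.17 for Tap2 (adjusted p = 0.00375) to −2.02 ± 0.35 for B2m (adjusted p = 2.8e-04), with a median of −1.49. Apart from F8, every treated female was above every treated male for all 10 genes. The share of all tested genes apart in this way without F8 is not given here, so this count has no background. With F8, only Psmb10 kept the groups apart, with 6.93 to 9.01 CPM in males and 10.9 to 14.2 CPM in females, and 5.55% of all tested genes were below in every male in the same way.

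The difference of the responses, male minus female, was below 0 for all 10 members, from −0.47 ± 0.16 for Psmb10 to −2.26 ± 0.61 for Nlrc5. With edgeR, 0 of 10 passed the threshold, with adjusted p from 0.0123 (Tapbp) to 0.0776 (Psmb8), and all 10 had an unadjusted p under 0.05. DESeq2 called 6 of 10 members and 896 of all 13049 tested genes. With edgeR, 0.69% of all tested genes (90) were called. Without F8, edgeR called 7 of 10 members and 893 genes. Without F4 it called 3 members and 398 genes, and without F3 1 member and 302 genes. Leaving out any other single mouse gave 0 members, and the calls over all genes were then as few as 1 (without M3).

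The calls in females rested on single mice. Without F2, without F6 or without F10, 0 members were called, although 5, 5 and 6 members had an unadjusted p under 0.05. The median log2 fold change of the 10 members was 0.68, 0.52 and 0.57 in these fits, against 0.70 with all mice. Without F8 there were 5 calls, with Nlrc5 as the fifth (log2 fold change 1.39). Without F1 or F7, vehicle mice, 2 were called. With females fitted on their own, 0 were called (5 at an unadjusted p under 0.05), and the log2 fold changes were 1.27 for H2-K1, 1.39 for H2-D1, 1.45 for B2m and 0.80 for Tapbp (adjusted p = 0.0619, 0.0448, 0.0419 and 0.0371). In males, Tap1 and Psmb10 had an adjusted p under 0.01 in 32 of 32 alternative analyses, Psmb9 in 29 and Psmb8 in 23. These 32 include fits that left out only females, which kept every male and could change the male result little. They also include the log2 limit of 1, which does not change the adjusted p. With that limit Psmb8 and Psmb10 were not called in males. Without M2, without M4 or without M11, 2 members were called in males.

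**Figure D4:**
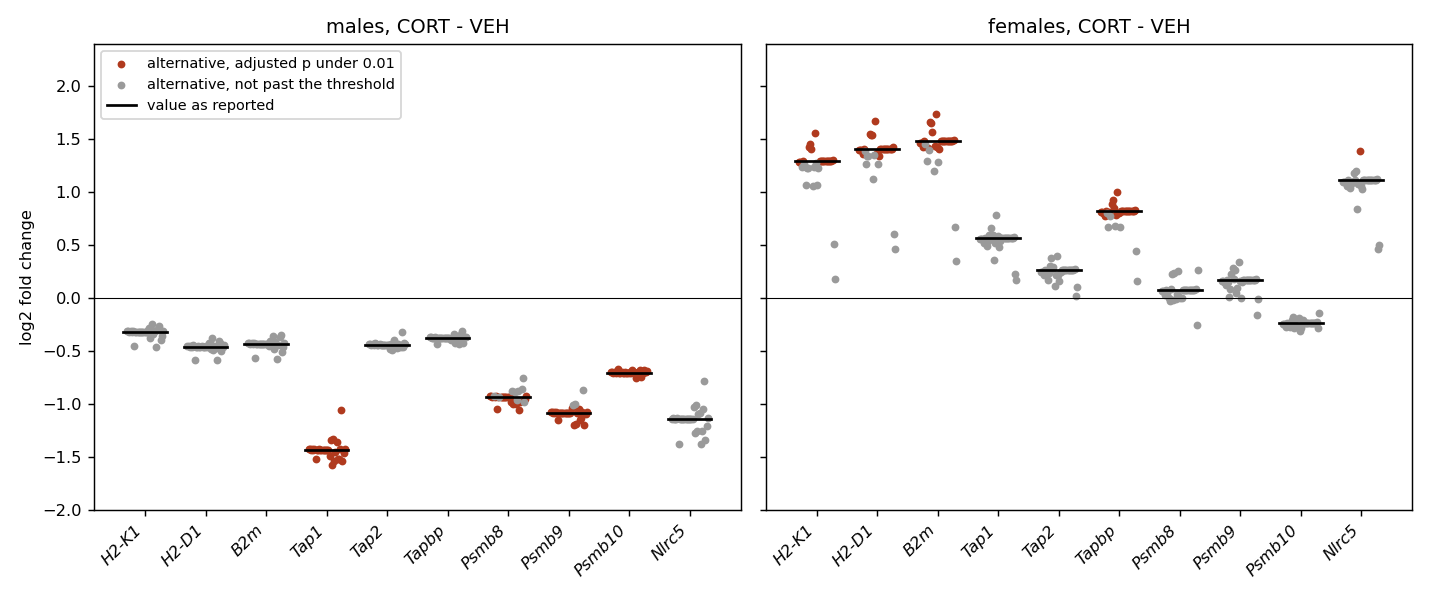
Log2 fold change of each gene (corticosterone minus vehicle) as reported (line) and in 32 alternative analyses (points, red with an adjusted p under 0.01), for males (left) and females (right). The male values of Tap1 stay between −1.57 and −1.06 and those of Psmb10 between −0.75 and −0.67, whereas B2m in females spans 0.35 to 1.74.

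Adipocyte markers were highest in females that also had high member levels. Summed over 6 markers, they were 25.2 CPM in F8, 545 in F4, 1572 in F10, 1705 in F2 and 3594 in F6, against 51.0 to 1576 CPM in Female_VEH, 27.8 to 496.9 in Male_VEH and 55.5 to 375.9 in Male_CORT. The order of the 5 treated females by this sum put F6 first and F8 last, as did the mean z score of the 10 members (1.81 in F6 and −0.91 in F8). In Female_VEH, the mice F3 and F5 had the most adipocyte markers, 1465 and 1576 CPM. They held the highest value of the group for all 10 members, F3 for 7 and F5 for 3. F9, also Female_VEH, had 932 CPM and a score of −0.14. In Male_VEH, M3 had the most markers (496.9 CPM) and the lowest score (−0.35), while M7 had the fewest (27.8 CPM) and a score of 0.21. In Male_CORT, M12 had the most (375.9 CPM) and M10 the fewest (55.5 CPM), with scores of −0.53 and −1.21. With the mean log2 CPM of the adipocyte markers as a covariate, 0 members were called in females (4 at an unadjusted p under 0.05). The log2 fold changes were 0.51 for H2-K1, 0.60 for H2-D1, 0.67 for B2m and 0.45 for Tapbp. Without the 5 mice with a marker sum over 1000 CPM, F4 and F8 stood against 4 vehicle females. The log2 fold changes were then 0.18, 0.46, 0.35 and 0.16, and no member had an unadjusted p under 0.05. For the treated males against the treated females, 4 members were called with the covariate (H2-D1, B2m, Tapbp and Psmb10) and 0 without these mice (6 at an unadjusted p under 0.05). The male calls were 4 with the covariate. They were also 4 without these mice, but these mice were all female, so that fit kept every male and does not test the male calls.

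Other cell types were measured in the same way. Macrophage markers (9 genes, C1qa the highest) summed to 88.6 CPM in F8, 148.8 in F2, 155.4 in F4, 219.9 in F6 and 274.4 in F10, against 69.4 to 143.5 CPM in Female_VEH. In males they summed to 47.1 to 164.0 CPM with vehicle and 63.8 to 95.5 CPM with corticosterone. Schwann cell markers (5 genes) summed to 84.1 to 279.9 CPM in Female_CORT and 68.4 to 206.9 in Female_VEH, with F10 the highest and F8 the lowest treated female. T and NK cell markers, 10 genes including Cd3e, Cd8a and Cd4, summed to at most 1.17 CPM in any mouse and none passed the filter. Markers of fibroblasts (6 genes, Dcn the highest) summed to 853.3 to 1228 CPM in Male_VEH and 347.9 to 508.3 CPM in Male_CORT without overlap. In females they summed to 787.6 to 1569 CPM in Female_VEH and 528.5 to 1014 CPM in Female_CORT, with overlap. Of the 6, 4 fell in males and 2 in females, where 13.1% and 6% of all tested genes fell. Endothelial markers (9 genes) were at 301.1 to 469.0 and 267.8 to 393.1 CPM in males, with 1 of 9 lower (Tek). Muscle fiber markers (6 genes, Acta1 the highest) were at 67241 CPM or more in every mouse, and none of them was called in either sex (edgeR). What these cell types contribute to the member levels was not tested.

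**Figure D5:**
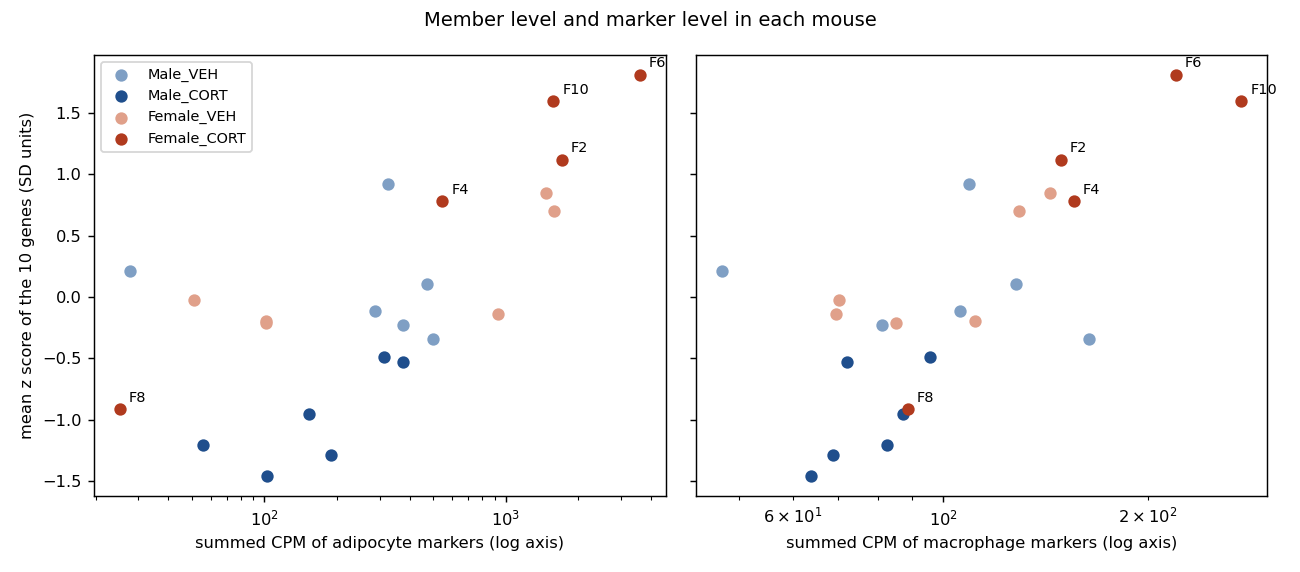
Mean z score of the 10 genes over the 23 mice (vertical axis, SD units) against the summed CPM of adipocyte markers (left) and macrophage markers (right) in each mouse (log axes). F6 and F10 are at the upper right of both panels, and F2 of the left panel only. In the right panel F2 (148.8 CPM, score 1.12) lies to the left of F4 (155.4 CPM, score 0.78). F8 at 25.2 CPM of adipocyte markers has the lowest score of the females.

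Non-classical class I chains pair with the same light chain. Of 17 genes listed, 13 were tested, 6 fell in males and 1 rose in females, and the median log2 fold changes were −0.64 and 0.32. H2-Q6 fell by 1.88, H2-T10 by 1.22 and Hfe, a regulator of iron uptake, by 1.03 on the log2 scale in males (adjusted p = 5.1e-04, 0.00252 and 6.6e-04). H2-T22 rose by 1.10 in females (adjusted p = 2.5e-04) and its log2 fold change in males was 0.40. Mr1, which presents vitamin metabolites and is named because it alone of the list passed for the difference of the responses (adjusted p = 0.00772), fell by 0.64 in males and had a log2 fold change of 0.32 in females. The H2-Q and H2-T genes are close copies of one another, so their levels are uncertain where reads match several of them.

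Other genes of peptide supply and assembly moved in both directions. Of 10 genes, all tested, 3 rose and 3 fell in males and 2 rose in females. The chaperone Calr rose in males by 0.44 and in females by 0.51, and Lnpep, a peptide-trimming enzyme, by 0.66 and 0.55. Psme1 and Psme2, which form the interferon-inducible proteasome activator PA28, fell in males by 0.83 and 0.42 (adjusted p = 5.6e-07 and 0.00659) with log2 fold changes of −0.33 and 0.11 in females. Erap1, which trims peptides in the endoplasmic reticulum, fell in males by 0.33, and the activator subunit Psme3 rose by 0.23. Of the 14 standard core subunits, Psma5 and Psmb2 fell in both sexes, by 0.62 and 0.46 in males and by 0.51 and 0.34 in females, and no other subunit was called.

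Among 22 genes of class I transcription and interferon-γ signalling, 20 were tested, with 2 higher and 2 lower in males and 2 higher and 3 lower in females. Irf1 was at 14.4 ± 7.25 CPM (SD, n = 6) in Male_VEH and 7.08 ± 0.81 CPM (n = 6) in Male_CORT and fell by 1.02 on the log2 scale (adjusted p = 6.8e-04). In females Irf1 was between 10.2 and 16.04 CPM with corticosterone and 11.97 and 15.4 CPM with vehicle (log2 fold change −0.07, adjusted p = 0.846). Rfx5, a subunit of the RFX factor that Nlrc5 works with, rose by 0.76 in males (adjusted p = 0.00503) and had a log2 fold change of 0.27 in females. Nfyb, a subunit of NF-Y, rose by 0.41 in males. Of the interferon-γ receptor chains, Ifngr1 rose by 0.90 in females and Ifngr2 fell by 0.93 in males and 1.31 in females. Irf8 fell by 0.56 in females. Ifng itself had 1 read pair in 1 mouse and 0 in the others, where a count of 0 allows up to 3 read pairs in a library.

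Of 19 interferon-induced genes, 17 were tested, 5 fell in males and 2 rose in females. The guanylate-binding protein Gbp4 fell by 3.10, Cxcl9 by 2.07 and the GTPase Iigp1 by 1.73 on the log2 scale in males, while their log2 fold changes in females were −1.25, −0.08 and 0.03. Ifit1 and Usp18 rose in females by 1.33 and 1.05, and had log2 fold changes of 0.10 and 0.30 in males. The medians over the list were −0.52 in males and 0.52 in females, and none of the list passed for the difference of the responses with edgeR.

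MHC class II genes, which present peptides from outside the cell, fell in both sexes. All 7 on the list, with the class II transactivator Ciita, fell in males and in females, where 13.1% and 6% of all tested genes fell. H2-Ab1 was at 32.7 CPM in Male_VEH and 0.80 in Male_CORT, and at 29.1 CPM in Female_VEH and 2.86 in Female_CORT, a fall by 5.33 and 3.33 on the log2 scale. H2-Eb1 fell by 5.21 and 3.30. Ciita averaged 1.503 and 0.03 CPM in males. In females it averaged 1.06 CPM with vehicle and was 0.04 to 0.29 CPM in the treated mice. The invariant chain Cd74 was 1.77 CPM in F2, 1.92 in F8, 8.11 in F10, 10.4 in F4 and 14.9 in F6, against at least 41.8 CPM in every vehicle female, so the lowest were F2, with high class I, and F8, with low class I. The B cell marker Ighm averaged 33.4 CPM in Female_CORT and 79.6 in Female_VEH, and 23.3 against 136.6 CPM in males. Of 5 B cell markers 1 was tested, and it was called in males only. The 5 summed to 106.2 CPM in F4 and 7.87 to 33.1 CPM in the other treated females, against 56.6 to 114.1 CPM in Female_VEH. Of 6 dendritic cell markers 2 were tested, and 1, Cd209a, was called lower in both sexes. The 6 summed to 5.78 to 8.32 CPM in Female_CORT and 6.39 to 11.7 CPM in Female_VEH, which overlap. In males they summed to 4.24 to 6.95 CPM with corticosterone and 7.88 to 11.1 CPM with vehicle. The part of B cells and dendritic cells in the class II levels was not tested.

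Over the 23 mice the 10 members varied together, Psmb10 the least. For the deviations from the group means, Psmb10 had r from 0.19 (H2-K1) to 0.47 (Tap2) with the other members. Pearson's r of log2 CPM between pairs of members had a median of 0.81 over the 45 pairs, from 0.32 for Psmb10 with H2-K1 to 0.99 for B2m with H2-D1, and the median was 0.74 for the deviations from the group means. The 5 other genes whose log2 CPM was most like the mean z score of the members over the 23 mice were Fcgrt (r = 0.94), Arsb (0.94), H2-Q4 (0.93), H2-T23 (0.93) and Camkk2 (0.93). For the deviations from the group means, r was 0.89, 0.91, 0.91, 0.86 and 0.84. These points share the library of each mouse, and the values are a description.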

How the data were processed

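Quadriceps RNA of 23 mice was sequenced by the study as stranded mRNA libraries with paired reads. The authors aligned reads to mm10 with STAR 2.7.3a and counted uniquely assigned pairs per Ensembl gene with HTSeq 0.12.4, using the strand. The deposited values are raw counts per gene, 1 library per mouse, and 5 summary entries (10.7% to 15.3% of read pairs) were kept out of library sizes. Samples were grouped by their titles. Symbols came from GENCODE M21, which held 55480 of the 55573 identifiers.

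Genes with more than 20 median-of-ratios normalized counts in at least 4 mice of a group were kept. Means of the 4 groups were fitted with edgeR 4.0.16 (TMM, quasi-likelihood, R 4.3.3) to all 23 mice, and p-values were adjusted over 13049 genes by Benjamini-Hochberg, with a threshold of 0.01. The SE was derived from the F statistic. The contrasts were corticosterone against vehicle in each sex, their difference, and males against females within each treatment. Subunit ratios were compared by exact permutation of mean log2 ratios, adjusted over 6 tests, with a threshold of 0.05. Z scores and correlations used log2 CPM with a prior count of 1. Alternatives were DESeq2 1.42.0, other scalings and filters, a log2 limit of 1, each sex alone, a replicate block, and leaving out each mouse. The fits were tested on simulated data. The members and gene lists were chosen with earlier results of these data known. Named were all members, Psmb5, Psmb6, Psmb7, Irf1 and Rfx5, and from each other list the genes called in males or females (where over 6 passed, the 3 largest rises and the 3 largest falls by the mean of both log2 fold changes). Each list is given by its counts, and 1 gene the rule names is counted but not reported here.

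No number was shared by mice of the same sex, and same-numbered males and females had the same treatment. The deviations of 11 same-numbered male and female pairs correlated between −0.38 and 0.48, so the numbers were taken as names. Replicates of a group differed beyond sampling noise. The labels name separate mice, and the p-values cover the spread between them.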

Additional observations from a re-analysis of the deposited data

Results flagged for a closer look

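B2m was 154.5 CPM in M11, the highest Male_VEH mouse, with a gap to the nearest of the other 5 that passed Dixon's test. This was the only such gap in 40 combinations of gene and group, and chance gives about 1 in 20. M11 was the highest Male_VEH mouse for 9 of the 10 members, and had 28.6 CPM of Irf1 and 44.1 CPM of Gbp4, the highest of all mice for both.

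Read pairs set aside for low alignment quality, which enter no gene count, reached 4618 in Female_CORT (F6), above the highest Female_VEH value of 1642. F2 and F10 had 3496 and 4015, and F4 and F8 1538 and 1266. In males they reached 1856 in Male_CORT (M12), against at most 1358 in Male_VEH. Libraries held at least 20904150 read pairs in genes, and the part of these read pairs in the member levels was not tested.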

How the results depend on the processing

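The members called in males (4) became 2 with a log2 limit of 1 and 2 to 4 when each mouse was left out. Those called in females (4) became 0 with each sex fitted alone, without M8 and F10, with the adipocyte covariate, or without the 5 mice over 1000 CPM of adipocyte markers (these last 2 were chosen after seeing the data), and 0 to 5 with mice left out in turn. Unadjusted p values under 0.05 were held by 5, 6, 4 and 0 members in these 4 fits. For the difference of the responses (0) DESeq2 gave 6 and leaving out mice 0 to 7. Between treated males and females (10) the covariate gave 4, leaving out the 5 mice 0, leaving out single mice 8 to 10, and the replicate block 5. The numbers were not taken to pair the mice, and in 4 of 11 pairs the female correlated best with the male of her own number. No block was possible for treatment within a sex. The cause of these changes was not tested, but every fit without mice has fewer of them. Over all genes, calls in males (3426) were 982 with the log2 limit and 2888 to 3643 with mice left out. Calls in females (1748) were 732 with the limit, 561 for each sex alone, 780 with the covariate, 96 without the 5 mice and 1004 to 2359. For the difference (90) they were 896 with DESeq2, 10 unfiltered, 40 with the limit, 4 without M8 and F10, 1 with the covariate, 2 without the 5 mice and 1 to 893. Between vehicle groups (125) they were 284 with DESeq2 and 75 with the limit. Between treated groups (3043) they were 1014 with the limit, 1382 without M8 and F10, 1476 with the covariate, 206 without the 5 mice and 1885 to 3742.

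Reversed signs were seen only for values that had not passed the threshold. In females, Psmb8 was −0.25 and Psmb9 −0.16 with the covariate, Psmb9 −0.0041 without the 5 mice, and Psmb8 −0.024 to 0.25 with mice left out. Between vehicle groups, H2-K1 was −0.0047 without M8 and F10 and −0.016 with the covariate, where Tap2 was −0.0039. There, without the 5 mice, H2-D1 was 0.25, B2m 0.24, Tapbp 0.014, Psmb8 0.24 and Psmb9 0.16. With mice left out, ranges were −0.070 to 0.11 for H2-K1, −0.15 to 0.042 for H2-D1, −0.19 to 0.060 for B2m, −0.039 to 0.48 for Tap1, −0.094 to 0.13 for Tap2 and −0.32 to 0.011 for Psmb9. The log2 ratio differences with mice left out were −0.85 to −0.61 (Psmb8/Psmb5) and −1.05 to −0.74 (Psmb9/Psmb6) in males, each with an adjusted p over 0.05 in 8 of 12, and −0.029 to 0.21 for Psmb10/Psmb7 in females. Of 1600 alternative values of single members over the 5 comparisons, 1468 kept their direction and their side of the threshold and 35 changed sign.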
